A study of Mus musculus with 93 samples.

Results

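Peripheral blood leukocytes of mice with advanced mammary tumors and of tumor-free control mice were profiled on 93 Affymetrix mouse whole-genome arrays, of which the 52 described here are the late-numbered tumor arrays. They are the tumor arrays whose titles carry the numbers 6 to 32 in the training cohort (27 arrays) and 9 to 33 in the validation cohort (25 arrays), and they were chosen by a measured value: on each of them the poly-A spike-in probe set for the bacterial dap transcript read above 5 on the log2 scale. They were set against all 28 control arrays, 14 from each cohort, with the cohort as a covariate. The other 13 tumor arrays carry the lowest numbers and no dap signal above that level. They were left out of this comparison and are given for description, with differences from a separate fit of all 93 arrays. The tumor-bearing mice were MMTV/c-MYC transgenic females of the FVB/NJ strain, in which the hormone-responsive promoter of the mouse mammary tumor virus drives c-MYC, either unaltered or as a point mutant of longer-lived protein, in mammary epithelium. According to the methods they were bred continuously and killed once tumors reached a set volume, and which transgene variant a mouse carried is not given per array. Control mice were wild type, tumor-free FVB/NJ females, matched for age and parity and kept under the same breeding conditions. RNA came from the leukocyte pellet of blood drawn from the cheek after lysis of the red cells, either at once or after storage of the lysate, and the labels do not say which applied to which array. A title number counts 1 array and nothing in the labels says that each array is a different mouse, so p-values measure the spread between these arrays.

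Mouse blood leukocytes are mostly lymphocytes, with neutrophils and monocytes as the main myeloid cells. Solid tumors, mouse mammary tumors among them, are known to raise the production of neutrophils and of immature myeloid cells in the marrow, and these cells enter the blood in larger numbers. Neutrophils carry granule proteins made early in their development and surface receptors acquired late, whereas B and T cells are recognised by the subunits of their antigen receptors and the kinases and transcription factors around them. In RNA from a whole leukocyte pellet, fewer cells of a type and less RNA per cell cannot be told apart. The study also counted blood cells at death and reported similar leukocyte profiles in mice with advanced tumors and in matched controls. Those counts were of blood from the hepatic portal vein, whereas the arrays used blood from the cheek.

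The labelled tissue was borne out by its markers: the mean level of 10 pan-leukocyte genes was between 12 and 12.65 on late tumor arrays (median 12.43), against 12.08 to 12.38 on control arrays (median 12.27). All levels are log2 values from RMA, and a difference of 1 is a doubling. The dap signal, which chose the arrays, was 6.57 to 10.8 on late tumor arrays, against 1.74 to 3.55 on control arrays, and the highest value outside the rule was 3.83 on a tumor array. Because no control array carried the spike-in, tumor status and the set of arrays prepared with it cannot be told apart in any comparison below. The spread of quality measures was also wider among late tumor arrays: the actin 5′ minus 3′ difference ran from -2.3 to -0.4 (median -0.5), against -0.9 to -0.5 (median -0.6) on control arrays. On this measure 2 late tumor arrays lay below and 22 above every control array. The Gapdh 5′ minus 3′ difference ran from -3.95 to -0.9 (median -1.2) on late tumor arrays, against -1.6 to -1 (median -1.15) on control arrays. On that measure 6 late tumor arrays lay below every control array, and it was not tried as a covariate. The 18S ribosomal RNA probe set had a median of 8.47 on late tumor arrays and 7.74 on control arrays, and 25 of the late tumor arrays lay above every control array. With the actin difference as a covariate 20684 of the 21516 calls given below remained in the same direction, and 20913 remained without the 2 arrays of low actin difference. The fits with components of control probe sets as covariates are named beside some of the results they change. Sign changes of named genes and moved list medians are given in the closing section. Training arrays 8, 22 and 25 and validation arrays 9, 15 and 19 of the late tumor set, and training array 11 and validation arrays 11 and 13 of the controls, correlated with the rest of their group by more than 3 median absolute deviations less than was usual. Results that rest on them are given with and without them.

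Differences between the groups ran through much of the transcriptome. In the limma fit, 12038 of 45037 probe sets were called higher and 9478 lower in the late tumor arrays at a Benjamini-Hochberg adjusted p under 0.05, which is 47.8% in all. With each gene represented by its brightest probe set, 5142 of 18193 genes (28.3%) were higher and 3873 (21.3%) lower, 49.6% in all, and the median difference over all genes was 0.04. Most differences were small: 300 genes were higher and 284 lower by more than 1 on the log2 scale. The calls moved with the control probe sets and the leukocyte lists: 5318 of the 21516 calls remained in the same direction, and 1422 turned, with 3 principal components of all control probe sets as covariates, 12229 remained and 47 turned with those of the endogenous ones alone, and 12161 remained and 362 turned with the B cell, T cell and mature neutrophil levels. All control probe sets include dap, which chose the arrays, so that their components can carry the difference between the groups itself. Calls lost or turned in that fit cannot be told apart from the choice of arrays. Each cohort has its own controls, and the cohorts were fitted separately as well. In the training cohort 38.2% of probe sets were called and in the validation cohort 32%, with 11812 called in both in the same direction, 6153 higher and 5659 lower. The test of a difference between the cohorts' effects called 0 probe sets in limma, with 1532 at an unadjusted p under 0.05. Across genes, which are not independent replicates, the differences of the cohorts correlated with r = 0.911, and 80.4% of genes had the same sign.

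**Figure D1:**
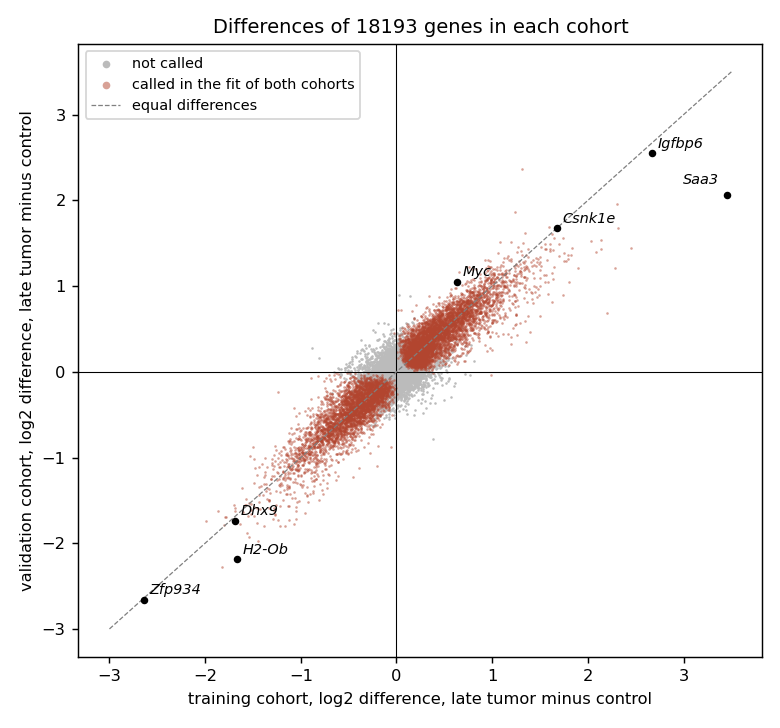
Log2 difference between late tumor and control arrays for 18193 genes, in the training cohort (horizontal axis) and the validation cohort (vertical axis). Red points were called in the fit of both cohorts, grey points were not, and the dashed line marks equal differences. Of the genes labelled in the plot, Saa3 lies farthest from that line, with 3.45 in training and 2.06 in validation.

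Myc, the mouse gene of the transcription factor c-MYC, is read by 1 probe set and lies at chr15:61985341-61990361 (GRCm38.p6). The sources used here do not say from which species the c-MYC transgene came. It had a lowest, median and highest level of 7.25, 8.76 and 12 on late tumor arrays, against 6.59, 7.86 and 9.06 on control arrays. The groups overlapped, with 13 of 52 late tumor arrays above every control array. The difference was 0.84 ± 0.16 (SE; adjusted p = 9.69e-06), and it was 0.77 without validation tumor array 19, which held the highest value, and 0.71 without all the arrays that stood apart. On the 13 other tumor arrays the median was 6.47. Among 13 measured genes of the Myc network, which bind Max or a related protein or compete with Myc for Max, 5 were higher and 3 lower, with a median difference of 0.12. Mxd3, a repressor of the Mad family, was higher by 0.35 ± 0.05, and Mga and Mlxip, which also dimerise with Max family proteins, were lower by 0.38 and 0.34 on the log2 scale. By quantitative RT-PCR the study reported little to no c-MYC transcript in transgenic blood, relative to mammary tumors. It also reported no significant difference between its groups of mice at Myc probe sets, this one among them. That comparison used MAS5 values and had virgin and pre-tumor mice as further groups. The rise given here, from RMA values and late tumor arrays alone, differs from it. Whether the Myc probe set reads the transgene was not tested here.

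The largest rise that held in both cohorts was that of Saa3. Saa3, a serum amyloid A made by inflamed tissue and macrophages, had levels of 5.22, 9.18 and 13.2 (lowest, median, highest) on late tumor arrays, against 3.55, 6.07 and 11.6 on control arrays. It varied over a wide range within each group, and only 10 late tumor arrays exceeded every control array. The difference was 2.77 ± 0.51 (adjusted p = 2.73e-06). Igfbp6, which binds insulin-like growth factor II, ran from 6.25 through a median of 9.87 to 12.4 on late tumor arrays, against 5.98, 7.22 and 9.2 on control arrays. Of the late tumor arrays, 34 lay above every control array, and the difference was 2.61 ± 0.26 (adjusted p = 8.61e-15). Ambp, the precursor of the plasma proteins alpha-1-microglobulin and bikunin, rose by 2.14 ± 0.30, and Lbp, the plasma protein that hands lipopolysaccharide to CD14, rose by 1.74 ± 0.27.

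Further rises came from enzymes. Upp1, uridine phosphorylase, had levels of 7.02, 9.52 and 11.7 on late tumor arrays, against 5.24, 7.68 and 10.3 on control arrays, a difference of 1.79 ± 0.27 with overlapping groups. Npl, which cleaves sialic acid, rose by 2.0 ± 0.25, Tgm1, a transglutaminase best known from skin, by 1.84 ± 0.21, and Agap1, a GTPase-activating protein for Arf, by 1.69 ± 0.16. Csnk1e, the kinase casein kinase 1 epsilon, had the smallest standard error of the 14 rises. It ran from 5.33 to 7.68 (median 6.76) on late tumor arrays, against 4.14 to 5.73 (median 5.09) on control arrays, and the groups barely overlapped. Its difference was 1.68 ± 0.11 (adjusted p = 2.95e-24), and the other 2 Csnk1e probe sets rose by 1.07 and 0.78. The rule also took in Ccdc146 (1.83 ± 0.23), the Riken clone 0610040J01Rik (1.78 ± 0.25), the interferon-induced Oasl2 and Oas2 described with their family below, and Clec4n (1.64 ± 0.21), the lectin receptor dectin-2. The levels of the neutrophil, B cell and T cell lists moved with these genes. When the 3 list levels were covariates, 4 of the 14 rises remained called (Igfbp6, Ccdc146, Agap1 and Csnk1e), 4 lost the call and 6 changed sign, among them Saa3 at -0.94 (adjusted p = 0.103) and Upp1 at -0.36 (adjusted p = 0.125). All 14 of the largest falls remained called in that fit. Clec4n, which lost the call, is itself a member of the mature neutrophil list. With 3 principal components of all control probe sets as covariates, 7 of the 14 rises and 8 of the 14 falls remained called, and the others lost the call without a change of sign. The spike-ins that separate the groups are among those probe sets, so that the lost calls cannot be told apart from the choice of arrays.

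The largest falls were led by a zinc finger gene. Zfp934, which encodes a KRAB-type zinc finger protein and lies at chr13:62516795-62579321, had levels of 4.82, 5.66 and 6.75 on late tumor arrays, against 7.45, 8.32 and 9.21 on control arrays. Every late tumor array lay below every control array, and the difference was -2.65 ± 0.10 (adjusted p = 8.14e-39). The gene's other probe set did not share it (0.19 ± 0.12, adjusted p = 0.197). H2-Ob, a chain of the class II chaperone that inhibits peptide loading in B cells, ran from 5.79 to 10.3 (median 9.06) on late tumor arrays, against 10 to 11.6 (median 11) on control arrays, so that 48 late tumor arrays lay below every control array and the difference was -1.92 ± 0.17. Tnfrsf13c, the BAFF receptor that keeps B cells alive, fell by 1.71, with levels of 6.39, 8.70 and 10.2 on late tumor arrays, against 9.5, 10.5 and 11.2 on control arrays. Rras2, a small GTPase of the Ras family, fell by 1.74, but only by 0.45 at its other probe set. Snhg8, a host RNA of a small nucleolar RNA, fell by 1.74 ± 0.08 and Nolc1, a nucleolar phosphoprotein that shuttles to Cajal bodies, by 1.74 ± 0.10. Obi1, a ubiquitin ligase of the replication origin, fell by 1.80 ± 0.10, and the difference of Usp53 was -1.71 ± 0.13. Nat8f4 (-1.86 ± 0.13), Klhdc1 (-1.64 ± 0.12), Fam160b2 (-1.72 ± 0.10) and the Riken clone 4930426D05Rik (-2.05 ± 0.19) completed the rule's falls together with Dhx9 and Zfp949, which are given next.

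In 60 of 18193 genes (0.33%) the groups did not overlap on any array. Of these, 29 genes were above (0.159% of all genes) and 31 below (0.17%) every control array on all 52 late tumor arrays. Dhx9, an RNA helicase at chr1:153455756-153487688, had levels of 8.6, 9.17 and 10 on late tumor arrays, against 10.7, 10.9 and 11.2 on control arrays. The gap of 0.7 between the groups equalled that of Zfp934 and exceeded that of every other such gene. Its difference was -1.71 ± 0.05 (adjusted p = 3.17e-45), with -1.45 at a second probe set and 0.07 (adjusted p = 0.163) at another, dim one. Gnb2, a beta subunit of heterotrimeric G proteins at chr5:137528127-137533449, ran from 9.06 through 9.82 to 10.5 on late tumor arrays, against 7.54, 8.15 and 8.69 on control arrays, and rose by 1.62 ± 0.09. Scaf1, an SR-related factor that binds the polymerase II tail, ran from 5.74 through 6.31 to 6.93 on late tumor arrays, against 4.05, 4.99 and 5.27 on control arrays, and rose by 1.41 ± 0.07. The other tumor arrays did not share all of these differences. Relative to control arrays they were at 0.16 for Dhx9, -1.07 for Gnb2 and -0.50 for Scaf1, but at -0.85 for Zfp934.

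Most of the genes with the widest gaps were lower in the late tumor arrays. Acyp1, an acylphosphatase, was lower at all 3 of its probe sets, by 1.25, 1.07 and 0.67 on the log2 scale, and Rrs1, a ribosome assembly factor, at both of its probe sets by 1.56 and 1.23. Tvp23b, a Golgi membrane protein, fell by 1.42 ± 0.07 at its only probe set. Ing5, a reader of histone methylation, fell by 1.37 ± 0.08 at the brightest of its 4 probe sets, was lower at another pair (-0.75 and -0.58) and rose by 0.41 at the remaining one. Zfp949 fell by 1.66 ± 0.08 at one probe set and rose by 0.53 ± 0.08 at the other, and Ier3ip1, an endoplasmic reticulum protein, fell by 1.24 ± 0.06 at one and rose by 0.68 ± 0.09 at the other. Such splits were common. Of 4179 genes with 2 or more called probe sets, 1439 (34.4%) had probe sets called in both directions, so that a difference at 1 probe set is not the level of the whole gene. Among the genes named here, Obi1, Mga, Spn, Smad3, Cyld, Stat5a, Pfkl, Pdia6, Higd1a, Ndrg1, Tra2a, Dnajb1, Hsp90aa1, Dnaja2, Itgb3, Sox4 and Canx also had a probe set called against the direction given.

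**Figure D2:**
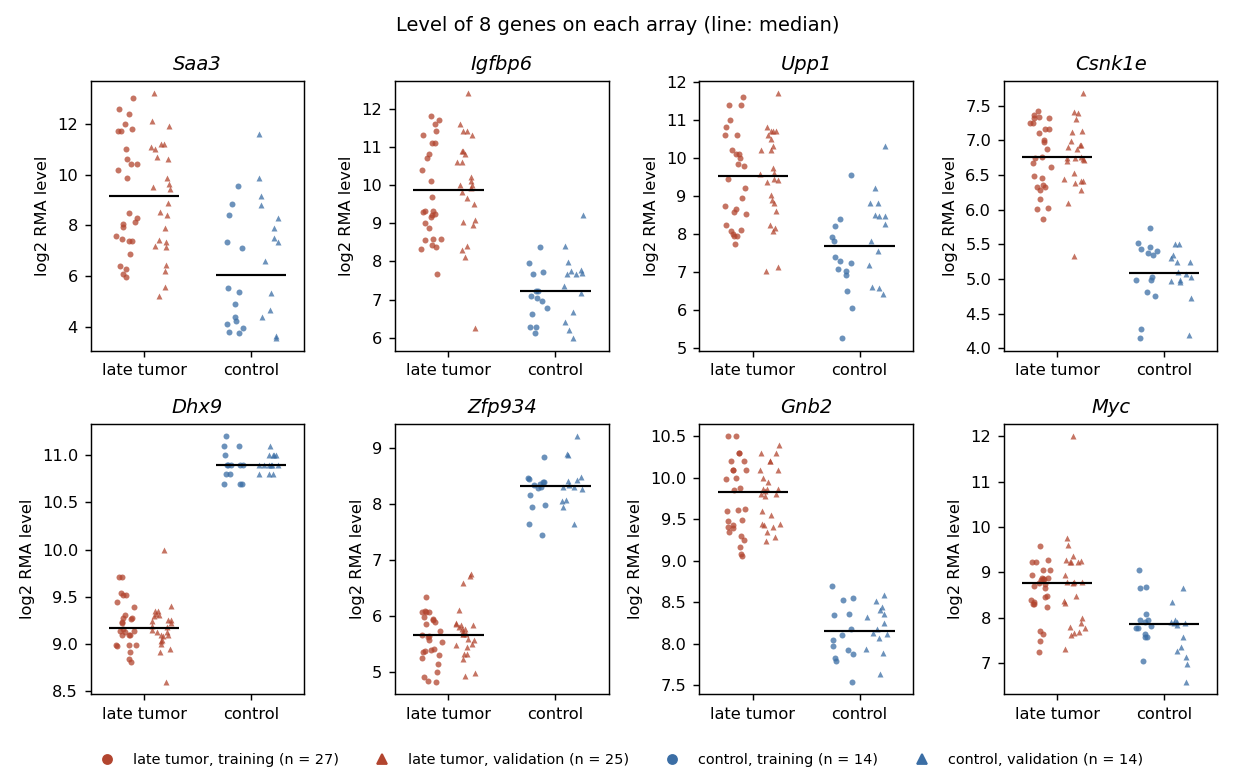
Log2 RMA level of 8 genes on each array, late tumor on the left and control on the right of each panel, circles for the training and triangles for the validation cohort, with a line at the median. Saa3, Igfbp6, Upp1 and Myc overlap between the groups, Csnk1e overlaps on 1 late tumor array, and Dhx9, Zfp934 and Gnb2 do not overlap.

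Gene lists were described by how many members were called, to be read beside the 28.3% higher and 21.3% lower among all genes. The neutrophil lists had the highest medians. Of 18 receptors and chemotaxis genes of mature neutrophils, 16 were higher and 0 lower, with a median difference of 0.80. The mean level of the list was 9.68 to 12.16 (median 11.43) on late tumor arrays, against 10.26 to 11.31 (median 10.73) on control arrays, and 34 late tumor arrays lay above every control array. Itgam, the CD11b chain of the integrin Mac-1, had levels of 5.63, 8.46 and 9.71 on late tumor arrays, against 5.75, 6.97 and 7.72 on control arrays, and rose by 1.51 ± 0.13, with 49 late tumor arrays above every control. Selplg, the ligand of P-selectin, rose by 0.81 ± 0.07, Trem1, an amplifier of inflammatory signals, by 1.03 ± 0.13, and Cxcr2, the receptor that draws neutrophils out of the marrow, by 0.74 ± 0.10.

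Granule proteins are transcribed mainly before neutrophils leave the marrow, but the granule list also holds other neutrophil genes, such as the receptor Ltb4r1. Of its 20 genes 17 were higher and 0 lower, with a median of 0.77, or 1.02 in the training and 0.54 in the validation cohort. Hp, haptoglobin, was at 11.9, 13.2 and 13.8 on late tumor arrays, against 11.6, 12.5 and 13 on control arrays, and 32 late tumor arrays exceeded every control. Its difference was 0.71 ± 0.08 (adjusted p = 1.18e-11). Ltb4r1, the leukotriene B4 receptor, rose by 1.22 ± 0.15, and the primary granule protease Ctsg by 0.95 ± 0.16. Chil3, a chitinase-like protein, rose by 0.87 ± 0.15 and Anxa1, annexin A1, by 0.41 ± 0.07. Monocyte and macrophage genes followed with 12 of 20 higher and 2 lower (median 0.42). Apoe, apolipoprotein E, rose by 1.01 ± 0.12, Cd14 by 0.99 ± 0.12, Cd68 by 0.66 ± 0.11 and the Fc receptor Fcgr4 by 0.71 ± 0.13, whereas the sialoglycoprotein Spn, which lymphocytes also carry, fell by 0.88 ± 0.10 (SE).

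Genes by which these cells sense and kill microbes were also mostly higher. In the Toll-like receptor list 16 of 22 were higher and 2 lower (median 0.43). Unc93b1, which carries the nucleic acid sensing receptors to endosomes, had levels of 6.46, 8.83 and 9.56 on late tumor arrays, against 6.27, 7.71 and 8.31 on control arrays, and rose by 1.13 ± 0.11. The adaptor Myd88 rose by 1.15 ± 0.12, the adaptor Ticam1 by 0.70 ± 0.08 and the receptors Tlr6 and Tlr2 by 1.04 and 1.26. Of 10 genes listed with the NADPH oxidase, not all of them subunits, 8 were higher and 1, the proton channel Hvcn1, lower (median 0.54). Cyba, the p22phox subunit, was at 11.6, 12.1 and 12.7 on late tumor arrays, against 10.9, 11.2 and 11.6 on control arrays, and 49 late tumor arrays exceeded every control. Vav1, an exchange factor for Rac, did not overlap between the groups and rose by 0.94 ± 0.07. The subunits Ncf4 and Ncf1 rose by 0.72 and 0.70, and Cyth4, which is not an oxidase subunit, by 0.90.

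The B cell, class II and T cell lists had the lowest medians. Of 21 B cell genes 19 were lower and 1 higher, with a median of -1.06. The list level was 6.44 to 9.64 (median 8.44) on late tumor arrays, against 8.41 to 10.01 (median 9.39) on control arrays, and 25 late tumor arrays lay below every control. Pou2af1, the coactivator OBF-1, had levels of 8.09, 10.15 and 11 on late tumor arrays, against 10.5, 11.2 and 11.6 on control arrays, and fell by 1.06 on the log2 scale. Ebf1, which commits progenitors to the B lineage, fell by 1.34 and Cr2, the complement receptor CD21, fell by 1.38 on that scale. The inhibitory receptor Btla fell by 1.16 and the exchange factor Ralgps2 fell by 0.96. Ltb, lymphotoxin beta, was the exception, with a rise of 0.62 ± 0.07. Among class II presentation genes 8 of 11 were lower and 0 higher (median -0.59). H2-Eb1 fell by 1.14, H2-DMb2 by 1.12, H2-Aa by 0.62 and H2-Oa by 0.71 on the log2 scale.

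Among T cell genes 11 of 20 were lower and 1 higher, with a median of -0.38 that was -0.62 in the training and -0.07 in the validation cohort. Cd2, an adhesion receptor, had levels of 9.35, 10.45 and 12.8 on late tumor arrays, against 10.7, 11.6 and 12.2 on control arrays. On 30 late tumor arrays it lay below and on 1 above every control, and the difference was -1.09 ± 0.12. Ubash3a, a suppressor of T cell receptor signals, fell by 1.28, the transcription factors Bcl11b and Lef1 by 0.84 and 0.73, and Cd3e by 0.52 on the log2 scale. With 3 principal components of the endogenous control probe sets as covariates the T cell median was 0.14. Of 21 natural killer and cytotoxic genes, 6 were lower and 1 higher. Their median was -0.21, or -0.37 in the training and 0.01 in the validation cohort. With the endogenous control components it was 0.20. Prf1, the pore-forming perforin, was at 8.1, 9.11 and 9.44 on late tumor arrays, against 8.09, 8.44 and 8.76 on control arrays, and 50 late tumor arrays exceeded every control. It rose by 0.66 ± 0.05, at 1 of its 2 probe sets, whereas Cd8a fell by 0.91, Klrc1 by 0.79, Klrd1 by 0.52 and Klre1 by 0.66 on the log2 scale. Plasma cell genes were mixed, with 3 of 13 higher and 6 lower (median -0.20). Xbp1, the transcription factor of the unfolded protein response, rose by 1.34 ± 0.10 and Creld2, induced under the same stress, by 0.56 ± 0.06, whereas Tnfrsf13b, Mzb1 and Sdc1, which mark plasma cells and their precursors, fell by 0.99, 1.31 and 1.06 on the log2 scale.

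**Figure D3:**
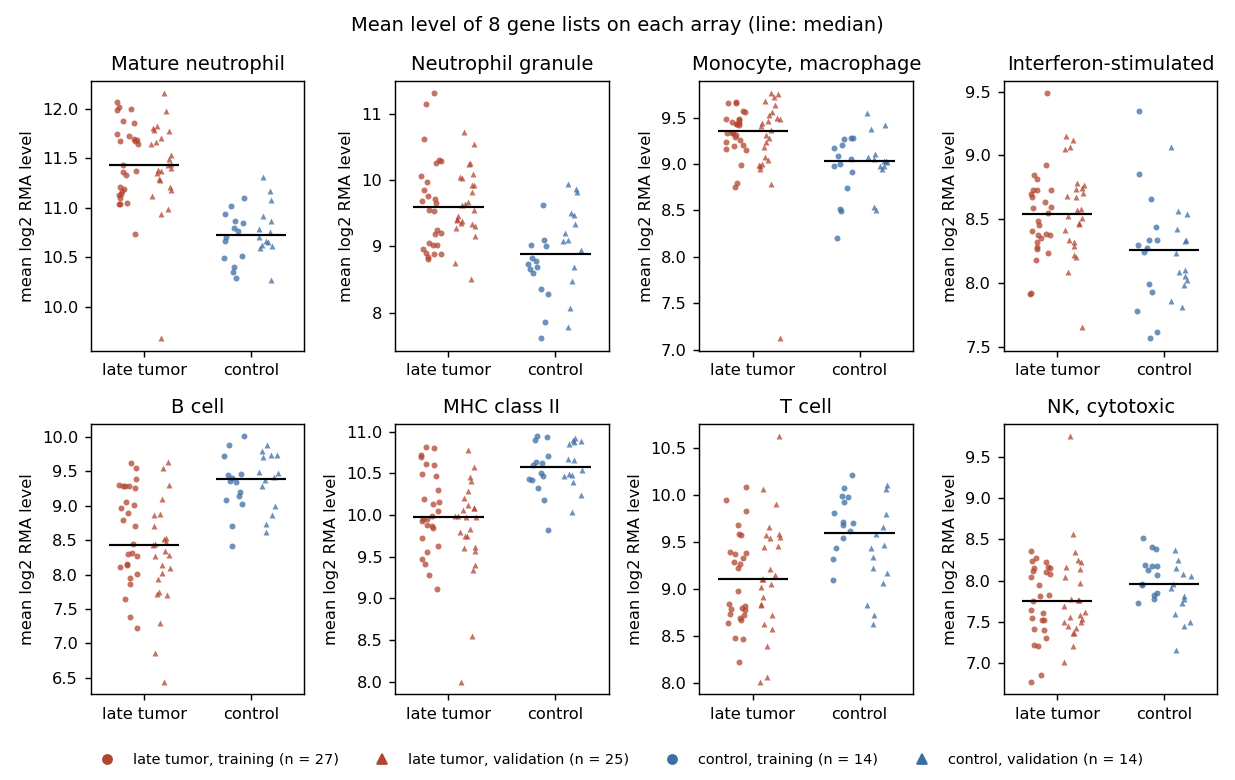
Mean log2 RMA level of 8 gene lists on each array, late tumor on the left and control on the right of each panel, circles for the training and triangles for the validation cohort, with a line at the median. By the median lines, the neutrophil, monocyte and interferon-stimulated lists lie higher and the B cell, class II, T cell and NK lists lower on the late tumor side. The median difference over the NK genes was -0.37 in training and 0.01 in validation. There is overlap in every panel, and 1 validation array, number 19, lies at the edge of most panels.

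The interferon-stimulated list was split within a gene family. Of 32 measured genes 17 were higher and 4 lower, with a median of 0.34. Irf7, the regulator of interferon production, had levels of 7.73, 8.7 and 9.98 on late tumor arrays, against 7.24, 7.78 and 8.72 on control arrays, and rose by 0.87 ± 0.09. The Oas genes make 2′-5′ oligoadenylate, which activates RNase L, or descend from such genes. Oasl2 was at 5.82, 10.25 and 11.5 on late tumor arrays, against 7.29, 8.42 and 10.2 on control arrays, and rose by 1.65 ± 0.19, Oas2 rose by 1.64 ± 0.22 and Oas1a by 1.08 ± 0.14. Oas3, on chromosome 5 like Oas1a, was at 7.51, 8.98 and 10.1 on late tumor arrays, against 8.89, 10.2 and 11.7 on control arrays. It fell by 1.28 on the log2 scale (adjusted p = 3.16e-11), and 22 late tumor arrays lay below every control. Bst2, the virus tether tetherin, rose by 0.62 ± 0.07 and the RNA sensor Ddx58 by 0.48 ± 0.06. The members Ifit1, Ifit3 and Mx1 gave -0.06, -0.10 and -0.21 and did not pass the test, and Rsad2 fell by 0.24 on the log2 scale.

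The promoters of Oas1a, Oas3 and Oasl2 are shown because the members of this family moved in opposite directions. The interferon-stimulated response element was searched as GAAA, any 2 bases and GAAA on either strand, overlapping matches included, in the 250 bases before to 50 bases after the start given by RefSeq (GRCm38.p6). Of 22 measured interferon-stimulated genes with a promoter in that table, 16 (72.7%) hold the motif, beside 3.99% of all 27025 genes. It stands in 8 of 12 promoters of the genes called higher, in both of those called lower and in 6 of 8 of those not called. Oas1a at chr5:120907476-120907775 on the minus strand has 2 overlapping matches, Oas3 at chr5:120777610-120777909 on the minus strand has 1, and Oasl2 at chr5:114896684-114896983 on the plus strand has 0. Capitals mark the motif.
Oas1a: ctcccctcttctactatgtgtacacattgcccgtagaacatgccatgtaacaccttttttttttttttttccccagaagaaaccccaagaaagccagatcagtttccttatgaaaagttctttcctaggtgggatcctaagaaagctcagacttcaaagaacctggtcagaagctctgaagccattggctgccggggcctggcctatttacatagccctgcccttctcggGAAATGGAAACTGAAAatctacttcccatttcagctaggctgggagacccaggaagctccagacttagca
Oas3: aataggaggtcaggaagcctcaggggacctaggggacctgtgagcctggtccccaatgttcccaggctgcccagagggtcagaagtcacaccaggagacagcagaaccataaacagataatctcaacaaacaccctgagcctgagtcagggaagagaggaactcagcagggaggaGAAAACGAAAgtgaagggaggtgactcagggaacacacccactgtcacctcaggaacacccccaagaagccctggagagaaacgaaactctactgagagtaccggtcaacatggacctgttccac
Oasl2: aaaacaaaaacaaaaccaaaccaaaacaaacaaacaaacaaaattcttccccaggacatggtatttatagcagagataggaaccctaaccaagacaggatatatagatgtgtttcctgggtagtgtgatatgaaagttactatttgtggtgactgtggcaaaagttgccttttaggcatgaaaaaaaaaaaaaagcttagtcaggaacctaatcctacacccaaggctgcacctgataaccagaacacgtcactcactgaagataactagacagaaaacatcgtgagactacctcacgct

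Signaling genes moved in both directions. Among cytokines and growth factors 13 of 28 were higher and 2 lower (median 0.27). Tgfb1, the cytokine TGF-beta 1, had levels of 8.5, 9.99 and 11 on late tumor arrays, against 7.79, 8.71 and 9.23 on control arrays, and 51 late tumor arrays exceeded every control. It rose by 1.29 ± 0.09 (adjusted p = 3.92e-22), Tnfsf14, the ligand LIGHT, by 0.96 ± 0.11, Tnfsf13b, the B cell survival factor BAFF, by 0.85 ± 0.12, Ebi3 by 0.84 ± 0.13 and Csf1, the macrophage growth factor, by 1.09 ± 0.17. The TGF-beta list as a whole had 6 of 24 higher and 9 lower (median -0.06): Nrros, which holds latent TGF-beta on myeloid cells, rose by 1.07 ± 0.09 and the coreceptor Eng by 0.52 ± 0.07, while the signal carriers Smad3 and Smad5 fell by 0.50 and 0.52 on the log2 scale.

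Within the NF-kappaB list 12 of 21 were higher and 6 lower (median 0.25). Nfkbie, the inhibitor I-kappaB epsilon, was at 8.31, 9.36 and 9.92 on late tumor arrays, against 9.95, 10.4 and 10.8 on control arrays, without overlap, and fell by 1.09 on the log2 scale at this and in the same direction at its other probe set. Nfkbid, a nuclear inhibitor of the same family, rose by 1.05 ± 0.08, the subunits Nfkb2 and Rela rose by 0.86 and 0.69, and the deubiquitinase Cyld fell by 0.60 on the log2 scale. Of 26 JAK-STAT genes 10 were higher and 6 lower (median 0.04). Stat6 rose by 0.89 ± 0.07, Stat3 by 0.82 ± 0.07 and Ifngr1, the interferon gamma receptor, by 0.86 ± 0.09, whereas the survival kinase Pim2 fell by 1.02 and Stat5a by 0.40 on the log2 scale. Immediate early genes were likewise split, with 12 of 24 higher and 6 lower (median 0.20). Junb was at 6.18, 7.74 and 8.83 on late tumor arrays, against 5.3, 6.3 and 7.0 on control arrays, and rose by 1.5 ± 0.13, with Ier2 and Klf2 up by 1.10 and 0.55. Egr3, a zinc finger factor induced by antigen receptors, was at 4.1, 5.26 and 7.14 on late tumor arrays, against 5.6, 6.88 and 7.44 on control arrays, and fell by 1.48 on the log2 scale, and Sgk1 fell by 0.38.

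Genes linked to immunosuppression by myeloid cells had 12 of 23 higher and 2 lower (median 0.23). Vsir, the checkpoint ligand VISTA, had levels of 10.5, 11.3 and 12.1 on late tumor arrays, against 9.44, 10.2 and 10.8 on control arrays, and rose by 1.06 ± 0.09. Entpd1, the ectonucleotidase CD39, rose by 1.37 ± 0.13 and Lgals9, galectin 9, by 0.86 ± 0.08, while Cd274, the checkpoint ligand PD-L1, was lower by 0.52 on the log2 scale. Integrins and their partners had 12 of 24 higher and 5 lower (median 0.19). Itga5, the fibronectin receptor chain, was at 6.07, 8.63 and 9.83 on late tumor arrays, against 6.06, 7.25 and 7.66 on control arrays, and rose by 1.44 ± 0.12. Itgb2, the common chain of the leukocyte integrins, rose by 0.49 ± 0.04, Tln1, talin, by 0.73 ± 0.06 and Itgal, the LFA-1 chain, by 0.41 ± 0.04.

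Metabolic lists were mostly higher. Of 22 glycolysis genes 18 were higher and 1 lower (median 0.42). Pfkl, a subunit of phosphofructokinase, had levels of 7.78, 8.46 and 9.31 on late tumor arrays, against 6.93, 7.41 and 7.78 on control arrays, and rose by 1.08 ± 0.08. Pfkfb4, which makes the activator of that enzyme, was at 6.83, 10.1 and 11.1 on late tumor arrays, against 7.54, 8.53 and 9.07 on control arrays, and rose by 1.52 ± 0.13. For each of these 2 genes, 51 late tumor arrays exceeded every control. Ldha, lactate dehydrogenase A, rose by 0.77 ± 0.07, Pkm, pyruvate kinase, by 0.60 ± 0.05 and Aldoa, aldolase A, by 0.37 ± 0.03. Of 27 lysosome genes 18 were higher and 2 lower (median 0.34). The protease Ctsd was at 12.1, 12.4 and 12.8 on late tumor arrays, against 11.3, 11.65 and 12 on control arrays, without overlap, and rose by 0.70 ± 0.04. Atp6v0d1, a proton pump subunit, rose by 0.88 ± 0.07, Ctsa by 0.97 ± 0.08, Ctsz by 0.59 ± 0.06 and Tfeb, the transcription factor of lysosome genes, by 0.97 ± 0.09.

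In the respiratory chain 33 of 47 genes were higher and 7 lower (median 0.26). Ndufb9, a complex I subunit, was at 10.4, 10.8 and 11.5 on late tumor arrays, against 9.69, 9.95 and 10.3 on control arrays, without overlap, and rose by 0.84 ± 0.06. The ATP synthase subunits Atp5e and Atp5j rose by 0.60 and 0.56 and Cox8a by 0.64, whereas Sdha, the flavoprotein of complex II, was at 10, 10.3 and 11.3 on late tumor arrays, against 10.8, 11.1 and 11.3 on control arrays, and fell by 0.74 on the log2 scale. Genes of endoplasmic reticulum stress and secretion had 14 of 22 higher and 6 lower (median 0.33). Ddit3, the factor CHOP, rose by 0.87 ± 0.08, Pdia6 by 0.68 ± 0.07, Herpud1 by 0.64 ± 0.06 and Sec61b by 0.44 ± 0.05. The hypoxia list was even, with 10 of 24 higher and 9 lower (median -0.03): Egln2, Ankrd37 and Higd1a rose by 0.52, 1.02 and 0.59 and Ndrg1 fell by 0.61 on the log2 scale.

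Genes of ribosome production and RNA processing stood on the lower side. Of 42 nucleolar genes 19 were lower and 8 higher (median -0.13), and the median was 0.21 with the endogenous control components as covariates. Nolc1 had levels of 5.89, 7.72 and 9.01 on late tumor arrays, against 9.03, 9.42 and 10 on control arrays, without overlap, but its other 2 probe sets gave 0.09 and 0.04 and did not pass the test. Gar1, a protein of H/ACA particles, fell by 1.10, Ddx21, an RNA helicase, by 0.76, Wdr43 by 0.97 and Rrn3, an initiation factor of polymerase I, by 0.83 on the log2 scale. Of 36 ribosomal protein genes 17 were lower and 6 higher, and the sizes were small (median -0.08). Rps15 fell by 0.31, Rpl12 by 0.72, Rps25 by 0.50, Rpl27 by 0.24 and Rps4x by 0.19 on the log2 scale. Among SR proteins and their kinases 13 of 19 were lower and 3 higher (median -0.26, and -0.05 with the endogenous control components). Srpk1, a kinase of SR proteins, was at 8.49, 9.89 and 11.5 on late tumor arrays, against 10.6, 10.95 and 11.3 on control arrays, and fell by 1.02 on the log2 scale. Tra2a, Srsf10 and Srsf1 fell by 0.63, 0.58 and 0.36, while Clk3 and Srsf4 rose by 0.65 and 0.60.

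Zinc finger genes named Zfp, most of them KRAB-type repressors or of unknown role, had 68 of 174 lower and 42 higher, with a median of -0.05. Zfp326 was at 5.94, 6.54 and 7.42 on late tumor arrays, against 7.48, 7.92 and 8.31 on control arrays, without overlap, and Zfp266 and Zfp317 fell by 1.06 and 0.99 on the log2 scale. Heat shock chaperones had 10 of 23 lower and 5 higher (median -0.13, and 0.12 with the endogenous control components). Dnajb1, the Hsp40 partner of Hsp70, was at 8.91, 9.26 and 9.98 on late tumor arrays, against 10, 10.4 and 10.8 on control arrays, without overlap, and fell by 1.09 on the log2 scale at 1 of its 2 probe sets, the other being called higher. Hsp90aa1, Hsph1 and Dnaja2 fell by 0.31, 0.33 and 0.23, and the cochaperone Bag3 rose by 0.62. Cell cycle and replication genes were divided, with 12 of 35 higher and 7 lower (median 0.07, -0.04 in training and 0.22 in validation). Kif23 and Ccnb2, which act in mitosis, rose by 1.01 and 0.99 and Aurka by 0.54, while Mcm4 and Mcm3 of the replicative helicase and Rrm2, which makes deoxynucleotides, fell by 0.68, 0.91 and 0.69 on the log2 scale.

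**Figure D4:**
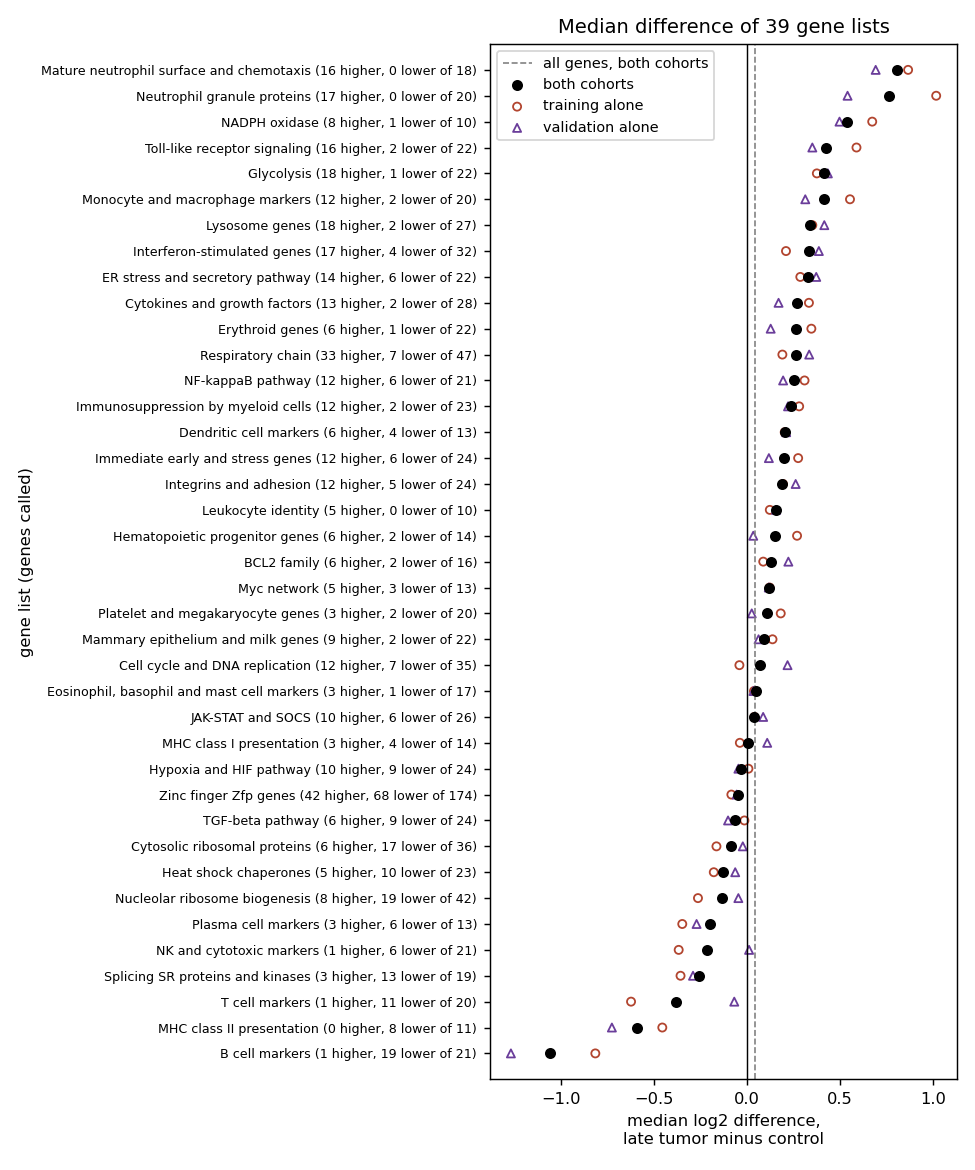
Median log2 difference between late tumor and control arrays of 39 gene lists (one row each, with the numbers of genes called in brackets), for both cohorts together (filled circles), training alone (open circles) and validation alone (open triangles), and the median of all genes (dashed line at 0.04). The neutrophil lists lie near 0.8, the B cell list at -1.06, and the gap between the cohorts is widest for the T cell list, at -0.62 in training and -0.07 in validation.

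The lists of other blood lineages had medians between 0.05 and 0.26. Of 22 erythroid genes 6 were higher and 1 lower (median 0.26). The share higher was 27.3%, near the 28.3% of all genes. Kel, the Kell blood group protease, ran from 4.7 to 11 (median 7.57) on late tumor arrays, against 3.95 to 8.97 (median 6.47) on control arrays, and rose by 1.18 ± 0.27, with Ank1, Rhd, Klf1 and Sptb up by 0.95, 0.86, 0.77 and 0.68. With the endogenous control components Ank1, Rhd, Klf1 and Sptb were at -0.07, -0.16, -0.42 and -0.39. Among 20 platelet genes 3 were higher and 2 lower. The median was 0.11, and -0.53 with the endogenous control components, where Gp1bb was at -0.32. Selp, P-selectin, rose by 0.93 ± 0.15, Nfe2 by 0.59 ± 0.10 and Gp1bb by 0.40 ± 0.14, while Itgb3, the integrin beta 3 chain, was lower by 0.61 and the thrombin receptor F2r by 0.59 on the log2 scale. Of 17 eosinophil, basophil and mast cell genes 3 were higher and 1 lower (median 0.05): Hdc, histidine decarboxylase, Siglecf and Kit rose by 1.06, 1.24 and 1.08, and Il5ra fell by 0.58 on the log2 scale, while Prg2 with 0.27 did not pass the test. Dendritic cell genes were split, with 6 of 13 higher and 4 lower (median 0.21). Flt3 and Itgax rose by 0.73 and 0.94, and Cd83 and the plasmacytoid factor Tcf4 fell by 1.33 and 0.65 on the log2 scale. Progenitor genes had 6 of 14 higher and 2 lower (median 0.15), with Spink2 up by 0.76 and Myb and Sox4 down by 0.86 and 0.74.

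In the class I presentation list 3 of 14 were higher and 4 lower (median 0.01), with the transporter Tap2 up by 0.53 and Calr, Nlrc5 and Canx down by 0.29, 0.55 and 0.24 on the log2 scale. The BCL2 family had 6 of 16 higher and 2 lower (median 0.13): the death-promoting members Bak1, Bid, Bad and Bbc3 rose by 0.80, 0.68, 0.71 and 0.49 and the survival protein Bcl2l2 fell by 0.77. Mammary epithelium and milk genes were near the floor of the array in both groups, with a list level of 3.74 to 5.17 (median 4.21) on late tumor arrays, against 3.56 to 4.29 (median 4.06) on control arrays. Of 22 genes 9 were higher and 2 lower (median 0.09). Csn2, beta-casein, had levels of 2.07, 2.64 and 9.17 on late tumor arrays, against 2.09, 2.37 and 2.86 on control arrays. It was high on some late tumor arrays only, 21 of which exceeded every control, and the difference was 1.12 ± 0.34. Csn3 and the keratin Krt8 rose by 0.44 and 0.27, and the other leading members, Xdh (1.01 ± 0.14) and Ltf (1.23 ± 0.28), are also known from blood cells, Ltf as lactoferrin of neutrophil granules.

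The spread among late tumor arrays was set against that among control arrays, and 0 of 18193 genes passed the limma test. In the same limma fit of absolute deviations from the group median, 1 probe set (0.00222%) was called, with a smaller spread in late tumor arrays, and 6642 had an unadjusted p under 0.05, 6305 of them with a larger spread. Without the arrays that stood apart 92 were called, 84 of them with a larger spread. Validation tumor array 19 stood furthest apart, with a median correlation of 0.910 to the other late tumor arrays, against a median of 0.985 over the set. Its T cell list level was 10.62 (8.02 to 10.09 on the other late tumor arrays), its cell cycle list 8.31 (6.13 to 7.19) and its nucleolar list 9.74 (7.18 to 8.56), each the highest of the 52. Its platelet list was at 7.91 (10.91 to 12.77 on the others) and its monocyte list at 7.12 (8.75 to 9.76), each the lowest. On that array Cd8a was at 12.4, Top2a at 10.2 and Myc at 12, the highest of the late tumor arrays, and Cd4 at 5.46, the lowest.

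Across the 52 late tumor arrays the neutrophil level was set against other levels in 4 relations, and Myc in 2, with p-values from 100000 permutations adjusted over the 6. The mature neutrophil list and the T cell list were inversely related, with Pearson's r = -0.699 and Spearman's rho = -0.665 (permutation p = 1e-05 for both, the smallest the permutations can give, adjusted 3e-05). The value was -0.613 without the 2 arrays farthest from the median, -0.667 in training and -0.72 in validation. Saa3 rose with the mature neutrophil list, with r = 0.731 and rho = 0.805 (permutation p = 1e-05, adjusted 3e-05), 0.807 without the 2 arrays, 0.806 in training and 0.678 in validation. The relation of the mature neutrophil and B cell lists depended on array 19: r was -0.235 (permutation p = 0.093) and rho -0.576 (permutation p = 4e-05, adjusted 8e-05), and r was -0.632 without that array, -0.625 in training and 0.02 in validation with the array included. The interferon-stimulated list rose with the neutrophil list at r = 0.362 (permutation p = 0.00913, adjusted 0.0116) and rho = 0.279 (adjusted permutation p = 0.0563), but at r = 0.12 without the 2 arrays, so that it rests on them, and r was 0.01 in training and 0.654 in validation. Myc and the nucleolar list gave r = 0.653 and rho = 0.41 (permutation p = 2e-05 and 0.0028, adjusted 4e-05 and 0.0042), 0.433 without the 2 arrays, 0.36 in training and 0.751 in validation. Myc and the cell cycle list gave r = 0.449 (permutation p = 0.00963, adjusted 0.0116) and rho = 0.122 (permutation p = 0.387), and r was -0.04 without the 2 arrays, so that the relation rests on them. It was 0.201 in training and 0.511 in validation. Levels on an array share its normalization, whose part in these relations was not tested.

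**Figure D5:**
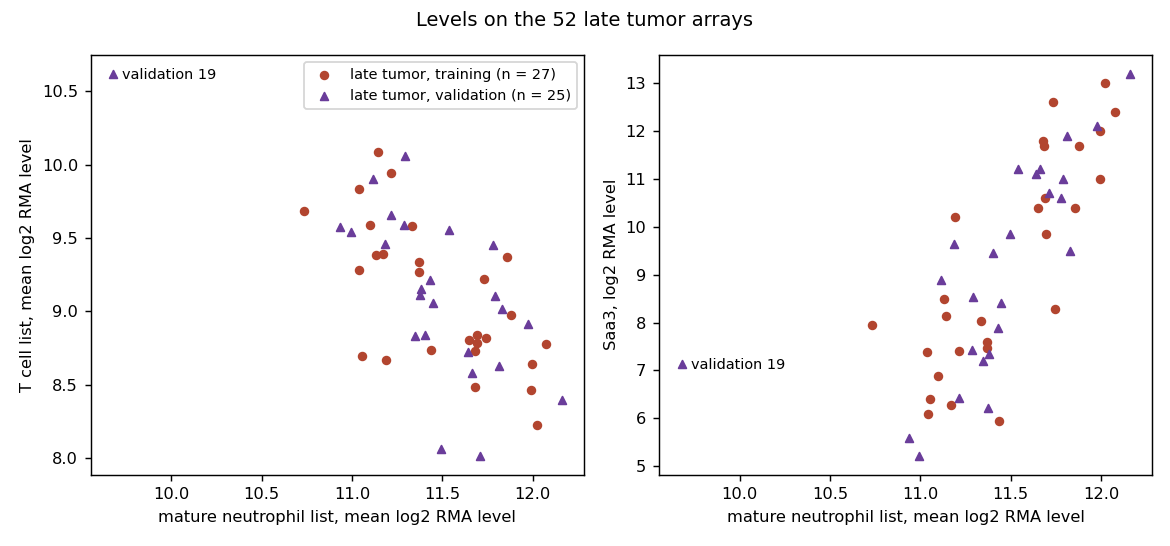
The 52 late tumor arrays by the mean log2 RMA level of the mature neutrophil list (horizontal axis) against that of the T cell list (left) and the level of Saa3 (right), circles for training and triangles for validation. T cell levels fall and Saa3 levels rise with the neutrophil level, and validation array 19 lies apart at the lowest neutrophil level, 9.68.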

How the data were processed

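The deposited values were used as the authors gave them: log2 expression from RMA (version not given in the sources used here), written to 3 significant digits, from NuGEN-amplified leukocyte RNA on 93 arrays. The study's methods describe a standardization on components of control probe sets, and the sources do not say whether the deposited log2 values include it. No depth applies to arrays, and their number limits the precision. Differences were fitted in R 4.3.3 with limma 3.58.1 (lmFit, eBayes with an intensity trend, two-sided) on 52 late tumor and 28 control arrays with cohort as covariate, adjusted by Benjamini-Hochberg over 45037 probe sets after leaving out 64 control probe sets. The other 13 tumor arrays were left out of that fit, because the spike-in signal separates them from the late ones. They were described by their levels and by a separate limma fit of all 93 arrays with cohort as covariate. Probe sets were named from GEO's platform annotation: 34945 have 1 symbol, 932 several and 9160 none, and the brightest probe set stood for each of 18193 genes. Named were the 14 largest rises and falls called in each cohort, among genes of above-median level, 10 genes without overlap and widest gap, Myc, and up to 5 genes of smallest p per list and any member without overlap. Other members, and the genes of array 19, were named after their values were seen. The members and the 39 lists were chosen with earlier results of these data known. The 15 other settings tried covered the trend, dim probe sets, normalization, array weights, control components, actin quality, arrays that stood apart, leukocyte levels, cohorts, the replicate block and other probe sets, and 2 were added after seeing the data (without array 19, and paired arrays without the block). Scripts were tested on simulated data. Promoters are from RefSeq (GRCm38.p6).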

Additional observations from a re-analysis of the deposited data

Results flagged for a closer look

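The other poly-A spike-ins, which are outside the main measurement, were above the control arrays as dap was. Because dap chose the arrays, these levels cannot be told apart from that choice and are no separate result. Late tumor arrays had a median of 5.05 for lys, 6.38 for phe and 6.6 for thr, against 3.04, 2.6 and 3.3 on control arrays. Every late tumor array exceeded every control array for phe and thr, and 31 of 52 did for lys. Gnb2 was 1.62 higher on late tumor arrays than on control arrays, with every late tumor array above the control mean, whereas every one of the 13 other tumor arrays lay below it. In the limma fit of all arrays Gnb2 was 2.68 higher on late than on the other tumor arrays (adjusted p = 1.87e-37), and those arrays were at -1.07 relative to control arrays (adjusted p = 1.13e-11). Gnb2 was flagged by these same levels, so these p-values are no separate support. Other named genes were mixed in this respect. Relative to control arrays, the other tumor arrays were at 0.03 for Csnk1e, 0.55 for Fam160b2 and -0.03 for Tnfrsf13c. They were at -1.08 for Acyp1 and -1.67 for Klhdc1, which also fell on late tumor arrays. The late and the other tumor arrays are separated by the spike-in, so that what else differs between them cannot be told apart from it.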

How the results depend on the processing

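The number of calls kept its size within 1.5 times without the intensity trend, without dim probe sets, after quantile normalization (10779 higher, 10341 lower) or median centring, with array weights, with the actin difference as a covariate and without the arrays that stood apart or array 19. It fell to 6747 higher and 4297 lower with components of all control probe sets as covariates, and the validation cohort alone gave 7608 higher. Title numbers did not pair the arrays: over 15 pairs the correlation of deviations ran from -0.468 to 0.237, was above 0.1 in 6 pairs, and 0 late tumor arrays correlated best with their own number. The replicate block left 15 late tumor arrays, 6780 probe sets called higher and 6252 lower, against 7332 and 6555 for the same arrays without the block, and the NADPH oxidase median was 0.73 in both. Left without dim probe sets, the medians of Immunosuppression by myeloid cells and BCL2 family were 0.67 and 0.31. The spread test called 535 probe sets on deviations from the mean and 92 without the arrays that stood apart. The cause of the changes listed next was not tested. Components of all control probe sets draw on the spike-ins that separate the groups, and can carry the group difference itself. Changes in that fit cannot be told apart from the choice of arrays.

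With 3 principal components of all control probe sets, the spike-ins included, as covariates, the sign changed for Mga (0.25), Mlxip (0.25), Spn (0.17), Ubash3a (0.41), Klrc1 (0.80), Klrd1 (0.13), Klre1 (0.25), Mx1 (1.47), Tgfb1 (-0.37), Tnfsf13b (-0.50), Csf1 (-0.14), Smad3 (0.35), Smad5 (0.33) and Sgk1 (0.43). In that fit it also changed for Tln1 (-0.43), Ctsz (-0.78), Egln2 (-0.13), Ddx21 (0.042), Rrn3 (0.28), Rpl12 (0.14), Rps25 (0.17), Rpl27 (0.12), Rps4x (0.029), Srsf10 (0.24), Srsf1 (0.20), Dnaja2 (0.56), Mcm4 (0.22) and Rrm2 (0.46). In that fit it also changed for Klf1 (-0.0036), Sptb (-0.40), Selp (-0.67), Nfe2 (-1.56), Gp1bb (-2.56), F2r (0.043), Itgax (-1.10), Nlrc5 (0.067), Canx (0.23), Bid (-0.0096), Csn2 (-3.49), Csn3 (-1.97) and Krt8 (-0.83). The list medians that moved in the same fit by more than the standard deviation within groups were those of Leukocyte identity (0.49), B cell markers (-2.15), MHC class II presentation (-1.24), Plasma cell markers (-1.44), T cell markers (0.13), NK and cytotoxic markers (0.31), Monocyte and macrophage markers (-0.024), Mature neutrophil surface and chemotaxis (0.32), eosinophil, basophil and mast cell markers (-0.49), Dendritic cell markers (-0.22) and Platelet and megakaryocyte genes (-2.79). Further ones were those of Mammary epithelium and milk genes (-0.38), MHC class I presentation (0.55), Cytokines and growth factors (-0.014), NF-kappaB pathway (0.58), JAK-STAT and SOCS (0.51), TGF-beta pathway (0.29), Integrins and adhesion (-0.16), NADPH oxidase (0.73), Lysosome genes (0.56), Hypoxia and HIF pathway (0.38) and Respiratory chain (0.44). Further ones were those of Cytosolic ribosomal proteins (0.14), Nucleolar ribosome biogenesis (0.47), Cell cycle and DNA replication (0.91), Splicing SR proteins and kinases (0.44), Zinc finger Zfp genes (0.28), ER stress and secretory pathway (0.47), Heat shock chaperones (0.17), Myc network (0.23) and Hematopoietic progenitor genes (-0.50). With components of the endogenous control probe sets alone, the sign changed for Mx1 (0.20), Dnaja2 (0.11), Ank1 (-0.073), Rhd (-0.16), Klf1 (-0.42), Sptb (-0.39), Gp1bb (-0.32), Krt8 (-0.025) and Cd4 (0.0037). The list medians that moved in the same fit by more than the standard deviation within groups were those of T cell markers (0.14), Platelet and megakaryocyte genes (-0.53), MHC class I presentation (0.27), JAK-STAT and SOCS (0.21), TGF-beta pathway (0.067), Nucleolar ribosome biogenesis (0.21), Splicing SR proteins and kinases (-0.045) and Heat shock chaperones (0.12). In the next fit the B cell, T cell and mature neutrophil list levels are themselves the covariates, so that the medians of these lists are brought near 0 by construction and say nothing of their stability. With the B cell, T cell and mature neutrophil list levels as covariates, the sign changed for Saa3 (-0.94), Ambp (-0.27), Npl (-0.0062), Upp1 (-0.36), 0610040J01Rik (-0.18), Lbp (-0.29), Chil3 (-0.019), Anxa1 (-0.11), Fcgr4 (-0.21), Hvcn1 (0.37), H2-Oa (0.16) and Klrd1 (0.21). In that fit it also changed for Klre1 (0.39), Ifit3 (0.37), Mx1 (0.0997), Ebi3 (-0.10), Hsph1 (0.086), Siglecf (-0.035), Kit (-1.65), Il5ra (0.18), Spink2 (-0.13), Ltf (-0.46) and Cd4 (0.041). The list medians that moved in the same fit by more than the standard deviation within groups were those of Leukocyte identity (-0.0031), B cell markers (-0.086), NK and cytotoxic markers (0.39), Monocyte and macrophage markers (-0.11), Neutrophil granule proteins (-0.17), Mature neutrophil surface and chemotaxis (-0.0099), Cytokines and growth factors (-0.065) and Immediate early and stress genes (-0.26). Further ones were those of Toll-like receptor signaling (0.077), NADPH oxidase (0.14), Lysosome genes (0.11), Hypoxia and HIF pathway (-0.22), Nucleolar ribosome biogenesis (0.25), ER stress and secretory pathway (0.20), Heat shock chaperones (0.048) and Myc network (-0.11). At the brightest other probe set of the gene, the sign changed for Zfp934 (0.19), Obi1 (0.13), Nolc1 (0.089), Zfp949 (0.53), Ier3ip1 (0.68), Spn (0.36), Ubash3a (0.28), Lef1 (0.17), Smad3 (0.11), Cyld (0.36), Stat5a (0.38), Egr3 (0.10) and Sdha (0.049). There it also changed for Pdia6 (-0.39), Higd1a (-0.56), Rps4x (0.16), Tra2a (0.11), Dnajb1 (0.45), Hsp90aa1 (0.18), Aurka (-0.064), Rrm2 (0.034), Itgb3 (0.63), Canx (0.42), Bcl2l2 (0.054), Csn3 (-0.025) and Top2a (-0.053). Top2a, which did not pass the test, was at -0.074 with array weights, -0.16 without the arrays that stood apart, -0.17 in training and -0.060 without array 19, and Cd4, which did not pass either, was at 0.071 in validation.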
